A study of Homo sapiens with 16 samples.

Results

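The comparison described here is that of ECC-1 cells given 17β-estradiol with ECC-1 cells given the solvent alone. It rests on 4 of the 16 RNA sequencing libraries of the series, the 2 estradiol and the 2 DMSO libraries of that line, and covers every gene in both directions. The files list 21453 gene symbols, and 13827 of them reached 1 RPKM in at least 2 libraries and were tested. RPKM is a read count divided by transcript length and by library size.

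The ECC-1 estradiol libraries came from cells exposed to 10 nM 17β-estradiol for 8 h, and the ECC-1 DMSO libraries from cells exposed to 0.02% DMSO for the same 8 h. Further ECC-1 libraries, 2 each, came from cells given 100 nM genistein or 100 nM bisphenol A (BPA), and the T-47D breast cancer line was treated with estradiol and with DMSO in the same way. Before treatment all groups were kept for 5 days in RPMI-1640 that lacked phenol red and held 10% serum stripped with charcoal and dextran, and was thus depleted of steroid hormones. The labels do not say whether the 2 libraries of a group were separate cultures, so the p-values below measure the spread between libraries, which may be technical. In bulk RNA, fewer cells making a transcript and less of it per cell cannot be told apart.

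ECC-1 is an established line derived from an endometrial adenocarcinoma, so a single cancer line stands for the tissue, without the stroma through which the uterus also responds to estradiol. Some stocks carrying this name have been found by DNA profiling to match other lines. Estradiol enters cells and binds estrogen receptor alpha, a transcription factor encoded by ESR1. The bound receptor attaches to enhancers, at estrogen response elements or through other factors, and recruits coactivators and corepressors. In the endometrium estradiol drives growth of the epithelium in the first part of the cycle and induces the progesterone receptor, through which progesterone later opposes it.

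The label was checked against marker genes. PAX8, a transcription factor of the Mullerian epithelium, had 98.5 and 66.5 scaled RPKM with estradiol, against 86.3 and 95.7 with DMSO, while both T-47D DMSO libraries had under 0.03. The breast factor GATA3 averaged 0.0309 over the 4 ECC-1 libraries and 300.2 in T-47D DMSO cells. Of 17 Mullerian markers, 13 were tested and none was called changed by limma at an adjusted p under 0.05, the threshold used throughout. Their summed level was 424 and 439 with estradiol and 434 and 443 with DMSO. PAX2 was at 0 in all 4 libraries, and MSX2 averaged 0.00609. Of the fibroblast and stromal list, VIM averaged 0.119, but ACTA2 averaged 41.7 and COL1A1 11.5, against 6.73 and 18.2 in T-47D DMSO cells. The list summed to 56.6 and 44.8 with estradiol and 56.9 and 60.9 with DMSO. Of the leukocyte list, PTPRC averaged 0.0118, LYZ 3.92 and CD68 1.46. None of the tested fibroblast, leukocyte or endothelial markers, 5, 3 and 3 genes, was called.

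The sums of the epithelial markers differed more. The 13 genes summed to 2984 and 3663 scaled RPKM with estradiol, against 4516 and 4652 with DMSO, and 0 of 13 were called. Most of that sum was KRT8 and KRT18, the keratins of simple epithelia. KRT8 had 1417 and 1715 with estradiol and 2182 and 2282 with DMSO. The part of this difference in the results below was not tested.

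Depth, estimated from the steps between low values, was 18.04 and 18.41 M reads (M, 1000000) for the estradiol libraries and 20.7 and 29.42 M reads for DMSO. A 2 kb transcript at 1 RPKM then rests on 36.1 to 58.8 reads. The first estradiol library stands apart. Between the 2 libraries of a group, log2 values differed with an SD across genes of 0.343 for estradiol and 0.187 for DMSO. Across 13010 genes of known length, the difference between the estradiol libraries had a Spearman correlation of 0.495 with log2 transcript length and 0.256 with GC content, against 0.02 and -0.458 for DMSO. The first library was the higher one in long transcripts, and results are given below with and without it where that mattered.

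Estradiol changed 262 of 13827 tested genes (1.89%). Of these, 196 rose (1.42%) and 66 fell (0.477%). These shares are the ones to set beside each count of list members below. The rises were larger: their median log2 change was 0.91, the largest was 3.91, and 91 exceeded 2-fold. The falls had a median of -0.70 and 6 of them exceeded 2-fold. Changes are differences of log2(scaled RPKM + 0.5), which understates the change of low genes. With 0.1 in place of 0.5, 103 rises and 16 falls exceeded 2-fold.

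The estradiol libraries lay outside the range of the DMSO libraries for each of the 262 genes. By itself that is common. Among all tested genes, both estradiol libraries lay above both DMSO libraries for 3002 (21.7%) and below both for 3012 (21.8%).

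A stricter count asks which calls remained when each of the 4 libraries was left out in turn. It kept 83 rises (0.6% of tested genes) and 6 falls (0.0434%). The 6 falls were BMF, TMEM139, YPEL3, ZBED2, APOBEC3B and C11orf52. All 25 of the largest rises are among the 83. Calls kept in only 1 of the 4 fits were mostly kept without the second estradiol library, where the first stands alone, and are the least firm after those kept in none. Leaving out the first estradiol library alone ended 102 of the 196 rises and 53 of the 66 falls.

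The transcripts that rose were long, with a median of 3600 bases, and those that fell were short, with 1888 bases, against 2868 bases over all tested genes. The 83 firmer rises had a median of 3489 bases. With trends in length and GC content removed from each library, 657 genes were called, of which 432 rose and 225 fell.

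**Figure D1:**
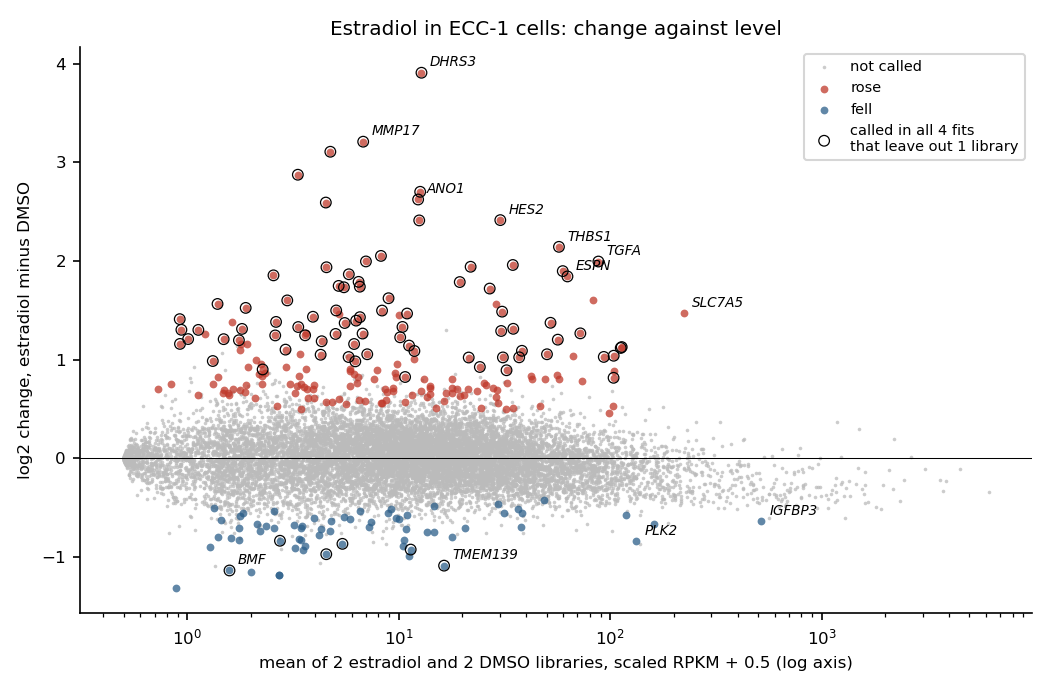
Log2 change with estradiol (y axis) against the mean of the 4 libraries in scaled RPKM plus 0.5 (x axis, log scale) for 13827 genes in ECC-1 cells. Red points rose, blue points fell, and black rings mark calls kept in all 4 fits that leave out 1 library; 91 rises and 6 falls exceeded 2-fold.

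The largest rise was that of DHRS3, a reductase that turns retinal back into retinol. It had 17.5 and 29.5 scaled RPKM with estradiol and 0.750 and 1.42 with DMSO, a log2 change of 3.91 (SE 0.34, adjusted p = 7.1e-06). Its lower estradiol library was over 10 times the higher DMSO library. MMP17, a membrane-anchored matrix metalloproteinase, had 12.6 and 10.9 with estradiol and 0.874 and 0.770 with DMSO, a log2 change of 3.21 (SE 0.17, adjusted p = 9.33e-08). The libraries of each group stood close together for MMP17 and far from the other group.

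Of 8 tested carbonic anhydrases and alkaline phosphatases, 4 rose, beside 1.42% of all tested genes. The median log2 change of the list was 0.81, against 0.00 over all tested genes. ALPP, placental alkaline phosphatase, had 5.99 and 4.74 scaled RPKM with estradiol and 0.262 and 0.330 with DMSO. Its neighbour ALPPL2, named ALPG in the current annotation, had 8.49 and 7.50 with estradiol and 0.378 and 0.604 with DMSO. The pair are close copies, and the sources used here do not give how reads matching both were shared. Their rises of 2.87 (SE 0.22) and 3.11 (SE 0.22) are therefore not separate measurements, although both count among the 4 and in the median. CA12, a membrane carbonic anhydrase, had 9.33 and 12.1 with estradiol and 2.26 and 2.32 with DMSO. CA2, its cytosolic relative, had 38.6 and 47.1 with estradiol and 16.4 and 17.9 with DMSO. No estradiol library of these 4 genes came near a DMSO library.

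The sequences before the starts of ALPP and ALPPL2 are shown because the genes are close copies that both rose. The 150 bases before the annotated start are given for both, with the arm of the palindromic estrogen response element, GGTCA, in capitals (on the other strand it reads TGACC). G0S2 and CA12, 2 further large rises chosen because their windows hold the arm, follow for comparison. The sequences are from RefSeq on GRCh38.p14, while the files use hg19. ALPP is on the plus strand of chr2:232378601-232378750, ALPPL2 on the plus strand of chr2:232406694-232406843 and G0S2 on the plus strand of chr1:209675262-209675411. For CA12 the bases from -250 to -101 are shown, on the minus strand of chr15:63381947-63382096.
ALPP: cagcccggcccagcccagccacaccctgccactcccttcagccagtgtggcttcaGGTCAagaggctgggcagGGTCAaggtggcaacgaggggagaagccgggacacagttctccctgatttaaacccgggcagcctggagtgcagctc
ALPPL2: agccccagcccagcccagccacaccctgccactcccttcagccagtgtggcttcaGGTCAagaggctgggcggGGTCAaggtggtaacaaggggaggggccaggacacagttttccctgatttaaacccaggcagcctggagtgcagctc
G0S2: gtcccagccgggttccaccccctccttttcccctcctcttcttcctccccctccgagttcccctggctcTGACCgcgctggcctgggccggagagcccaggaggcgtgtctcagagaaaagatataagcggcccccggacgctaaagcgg
CA12: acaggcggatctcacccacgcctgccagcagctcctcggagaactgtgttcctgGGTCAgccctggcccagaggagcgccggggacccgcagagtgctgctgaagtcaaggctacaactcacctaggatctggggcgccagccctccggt
ALPP and ALPPL2 have the same letter at 138 of these 150 positions, and both hold 2 arms in the same direction, 18 bases from one start to the next.

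Over all genes the windows of those that rose or fell held the motif about as often as the others. In the 250 bases before the start, windows were at hand for 130 of the 196 genes that rose, 45 of the 66 that fell and 10857 of all tested genes, some with several windows. The arm, on either strand, was in 28.9% of 201 windows of genes that rose, 28.6% of 63 windows of genes that fell and 30.1% of 15718 windows of all tested genes. The full element was searched as GGTCA, any 3 bases, then TGACC, and includes the arm. It was in 0 windows of genes that rose or fell and in 2 of all tested genes. With up to 1 letter off it was in 1 window of the genes that rose and in 61 of all. Of the 25 largest rises, 16 had a window, and 9 of those had no arm in any: ANO1, HES2, THBS1, NRTN, PIM1, CBFA2T3, DEGS2, KCNJ5 and CABLES1. These are matches of letters in a short window and say nothing of distant sites.

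ANO1, a calcium-activated chloride channel of secretory epithelia, had 21.4 and 20.1 scaled RPKM with estradiol and 2.83 and 3.06 with DMSO, a log2 change of 2.62 (SE 0.18). SLC6A6, the taurine transporter, had 14.7 and 10.9 with estradiol and 2.54 and 2.81 with DMSO. SLCO2A1, which carries prostaglandins across the membrane, had 8.61 and 6.43 with estradiol and 1.73 and 2.02 with DMSO. Of 22 tested chloride and potassium channels on the list, ANO1 and KCNK15 rose, none fell and the median was 0.09. Of all tested genes 1.42% rose. KCNK15 was called in 2 of the 4 fits without 1 library. It overlaps RIMS4, whose reads it may share, and both rose by 1.16 on the log2 scale. RIMS4 was the more abundant, with 9.16 and 6.86 with estradiol, against 2.06 and 1.85 for KCNK15. The inward-rectifier potassium channel KCNJ5, with 10.2 and 8.93 against 2.37 and 2.66 in DMSO cells, is among the 25 largest rises.

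Amino acid and osmolyte carriers had a median log2 change of 0.40 over 22 tested members, of which 3 rose and none fell. The median was 0.21 without the first estradiol library. SLC7A5, the large neutral amino acid carrier, had 411 and 247 scaled RPKM with estradiol and 96.4 and 136 with DMSO. The groups do not overlap, but the estradiol libraries differ widely and the call held in 2 of the 4 fits without 1 library. SLC7A5P1 and SLC7A5P2, pseudogene copies of the same carrier, rose by 1.60 and 1.57 on the log2 scale, and reads of the 3 rows may be shared.

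TGFA, a ligand of the EGF receptor, was abundant: 134 and 147 scaled RPKM with estradiol, against 35.1 and 34.4 with DMSO. It was the only 1 of 11 tested EGF receptor ligands and receptors to rise, and none fell. NRTN (neurturin), a ligand of the GDNF family, had 30.9 and 37.3 with estradiol and 10.2 and 6.99 with DMSO, the only call among 30 tested members of a list of other growth factors and cytokines, whose median was -0.12. THBS1, the matrix protein thrombospondin, had 118 and 67.6 with estradiol and 15.1 and 25.97 with DMSO. THBS1 did not overlap between groups, although the libraries within each group differed widely. PLAT, tissue plasminogen activator, had 6.25 and 7.17 with estradiol and 1.53 and 1.24 with DMSO, and MUC5B, a gel-forming mucin, had 7.60 and 6.90 with estradiol and 0.832 and 0.738 with DMSO. CILP, a matrix protein first described in cartilage, had 31.2 and 28.0 with estradiol and 8.79 and 7.67 with DMSO.

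**Figure D2:**
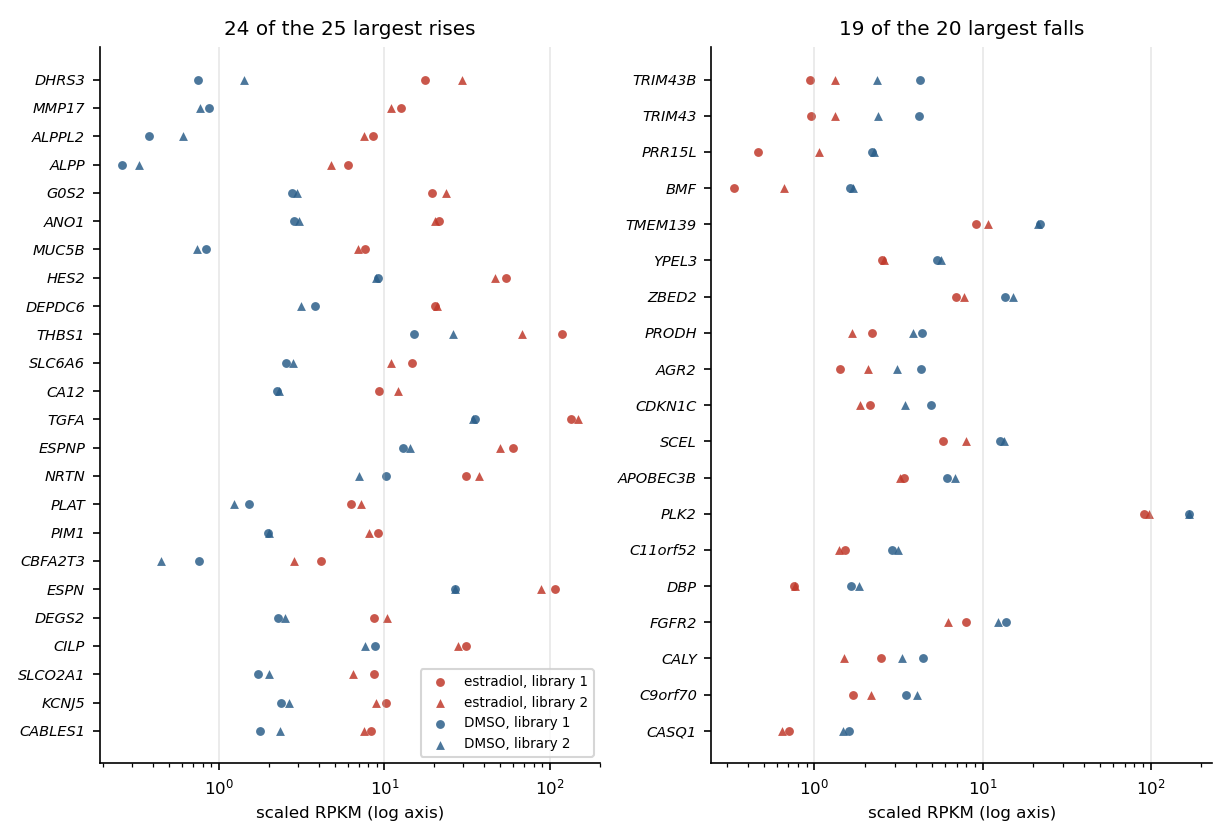
Scaled RPKM (x axis, log scale) of 24 of the 25 genes that rose most and 19 of the 20 that fell most by log2 change, in 2 estradiol libraries (red) and 2 DMSO libraries (blue) of ECC-1 cells; circles are library 1 and triangles library 2. DHRS3 has 17.5 and 29.5 with estradiol against 0.750 and 1.42 with DMSO, while TMEM139 has 9.18 and 10.8 against 22.0 and 21.5.

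Inside the cell, a few feedback regulators rose. PIM1, a serine/threonine kinase induced by cytokines, had 9.09 and 8.12 scaled RPKM with estradiol and 1.99 and 2.00 with DMSO. CISH, an inhibitor of STAT5 signalling, had 8.01 and 9.21 with estradiol and 2.90 and 3.01 with DMSO. These were the 2 rises among 19 tested cytokine feedback genes, with no falls and a median of 0.13. Among 19 MAP kinase feedback genes DUSP2, FOSL1 and SPRY4 rose, none fell, 17 of 19 changes were positive and the median was 0.28. Without the first estradiol library the medians of the cytokine and MAP kinase lists were 0.07 and 0.21. Of all tested genes 1.42% rose. DUSP2, a phosphatase that inactivates MAP kinases, had 2.19 and 1.98 with estradiol and 0.525 and 0.557 with DMSO. FOSL1 and SPRY4 were called in 1 of the 4 fits without 1 library and DUSP2 in all 4.

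DEPDC6, known as DEPTOR and an inhibitor of mTOR, had 20.2 and 20.8 scaled RPKM with estradiol and 3.80 and 3.13 with DMSO, the only change among 26 tested mTOR genes. G0S2, an inhibitor of adipose triglyceride lipase, had 19.4 and 23.4 with estradiol and 2.75 and 2.95 with DMSO, the only change among 16 lipid droplet genes. DEGS2, which acts in sphingolipid synthesis, had 8.67 and 10.4 with estradiol and 2.27 and 2.51 with DMSO. HSD11B2, which inactivates cortisol, had 4.30 and 3.63 with estradiol and 0.924 and 1.02 with DMSO. For all 4 genes the groups were well apart. None of 33 sterol and fatty acid synthesis genes was called, and their median was -0.09.

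Besides DHRS3, another gene of the retinoid pathway rose, but most members of that list had negative changes. Of 21 tested retinoid handling genes 2 rose and 1 fell, 15 changes were negative and the median was -0.15. The retinoic acid receptor RARA had 12.01 and 8.32 scaled RPKM with estradiol and 5.61 and 6.33 with DMSO, and was called in 1 of the 4 fits without 1 library.

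Notch genes also moved in both directions. HES2, a repressor of the HES family, had 54.1 and 46.6 scaled RPKM with estradiol and 9.20 and 8.85 with DMSO, and MFNG, which modifies Notch receptors with sugars, had 2.44 and 2.09 with estradiol and 0.199 and 0.817 with DMSO. HES1, the best known Notch target, fell to 25.6 and 24.4, against 35.3 and 38.9 with DMSO. NRARP, a target that dampens Notch signalling, fell to 10.8 and 9.95, against 16.7 and 19.0 with DMSO. These 4 were the calls among 17 tested members, whose median was -0.02. HES1 was called in 1 and NRARP in 3 of the 4 fits without 1 library.

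ESR1, the gene of the receptor itself, was not called. ESR1 had 19.3 and 17.1 scaled RPKM with estradiol and 23.7 and 19.5 with DMSO, a log2 difference of -0.24 (SE 0.18, adjusted p = 0.522). ESR2, encoding estrogen receptor beta, was under 0.4 in all 4 libraries and was not tested. Among 28 tested receptors and coregulators, 2 rose and none fell, beside 1.42% and 0.477% of all tested genes. They were the coactivator PPARGC1B, with 3.998 and 2.38 with estradiol and 1.06 and 0.972 with DMSO, and the corepressor NRIP1, with 17.4 and 13.1 with estradiol and 7.92 and 6.62 with DMSO. The median of the 28 was 0.20, and 0.04 without the first estradiol library.

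Genes known as estrogen-induced in breast cancer cells responded in part. Of 55 tested, 12 rose: CA12, SLC7A5, PGR, GREB1, NRIP1, RAPGEFL1, SLC9A3R1, RBBP8, IGFBP4, SIAH2, MYC and RARA. The share that rose over all tested genes was 1.42%. This list and the others were chosen with earlier results of these data known, so a higher share may be in part built in. AGR2, a disulfide isomerase of the endoplasmic reticulum, was the single member that fell, to 1.41 and 2.07 scaled RPKM with estradiol, against 4.31 and 3.10 with DMSO. The median of the list was 0.23. CA12 and PGR were called in all 4 fits without 1 library. NRIP1, SLC9A3R1, IGFBP4, SIAH2 and AGR2 were called in 2 of the 4, and RAPGEFL1 and RBBP8 in 1.

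PGR, the progesterone receptor, was far lower in these cells than in T-47D. It had 0.781 and 0.768 scaled RPKM with estradiol and 0.0941 and 0.0478 with DMSO, a log2 change of 1.16 (SE 0.18, adjusted p = 0.00226), whereas T-47D had 113 and 163 with estradiol and 58.4 and 68.5 with DMSO. The level of 3 reads of this transcript was 0.0117 and 0.0115 with estradiol and 0.0102 and 0.00712 with DMSO, so all 4 values lay above it. The ratio of the means in ECC-1, without the added 0.5, was 10.9. GREB1, an estrogen receptor cofactor, had 4.51 and 3.63 with estradiol and 1.99 and 1.43 with DMSO. The growth regulator MYC had 35.4 and 33.1 with estradiol and 19.0 and 22.4 with DMSO. GREB1 was called in 2 and MYC in 1 of the 4 fits without 1 library.

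CCND1, encoding cyclin D1, had 318 and 255 with estradiol and 209 and 232 with DMSO and was not called (log2 difference 0.37, SE 0.16, adjusted p = 0.285). TFF1, a trefoil peptide, and the chemokine CXCL12 were listed at 0 in all 4 libraries. The scaffold gene PDZK1 had 1.09 and 1.12 with estradiol and 1.40 and 0.986 with DMSO and was not called either. CYP1A1, a target of the aryl hydrocarbon receptor, had 1.04 and 1.58 with estradiol and 1.63 and 4.90 with DMSO, where the groups nearly meet and the DMSO libraries differ most.

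A list of estrogen-linked genes of the endometrium gave 5 rises and no fall among 36 tested genes, with a median of 0.08. They were ALPP, TGFA, EGR1, PGR and GREB1. Over all tested genes 1.42% rose. EGR1, an immediate early zinc finger factor, had 15.8 and 12.3 scaled RPKM with estradiol and 5.99 and 3.81 with DMSO. With FOSL1 and MYC it made 3 rises among 21 tested immediate early genes. The median of that list was 0.20, or 0.07 without the first estradiol library. EGR1 was called in 2 of the 4 fits without 1 library.

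Some genes of growth arrest, and some known as estrogen-repressed, fell. Of 38 tested estrogen-repressed genes, 5 fell and none rose: BMF, YPEL3, CCNG2, HES1 and BLNK. Their list had 31 of 38 changes below 0 and a median of -0.20. Of 34 tested growth arrest and FOXO-linked genes, YPEL3, YPEL5, CCNG2 and CDKN1C fell, none rose and the median was -0.24, or -0.27 without the first estradiol library. Both medians stand beside 0.00 over all tested genes, of which 0.477% fell. YPEL3 and CCNG2 are on both lists.

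BMF, which promotes apoptosis by binding BCL2 proteins, fell to 0.333 and 0.663 scaled RPKM with estradiol, against 1.64 and 1.70 with DMSO, a log2 change of -1.14 (SE 0.18, adjusted p = 0.00179). It was the single call among 16 tested BCL2 family genes. YPEL3, a growth suppressor, fell to 2.53 and 2.59, against 5.37 and 5.66 with DMSO. CCNG2, an unusual cyclin linked to quiescence, fell to 11.4 and 13.7, against 23.6 and 20.6 with DMSO. CDKN1C, the cyclin-dependent kinase inhibitor p57, fell to 2.13 and 1.88, against 4.94 and 3.48 with DMSO. The 4 differ in how firm they are: BMF and YPEL3 were called in all 4 fits without 1 library, CCNG2 in 1 and CDKN1C in none.

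Cell cycle lists gave 3 calls. Among 41 G1/S genes, CCND2 rose and RFC4, a subunit of the clamp loader of replication, fell, and the median was -0.02. CCND2, encoding cyclin D2, had 9.40 and 5.71 scaled RPKM with estradiol and 2.36 and 2.71 with DMSO and was called in all 4 fits without 1 library. Among 35 G2/M genes the chromatin protein HMGB2 fell to 109 and 139, against 215 and 178 with DMSO, and the median was -0.15. The 2 falls were less firm: RFC4 was called in 1 and HMGB2 in 2 of the 4 fits.

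Ribosome biogenesis genes had mostly positive changes. Of 47 tested, 44 had a positive change, the median was 0.33, and 5 rose: PPRC1, RRP12, WDR43, DDX21 and LYAR. Over all tested genes the median log2 change was 0.00 and 1.42% rose. The median was 0.32 without the first estradiol library and 0.38 without the second. DDX21, a nucleolar helicase, had 120 and 122 scaled RPKM with estradiol and 83.8 and 84.4 with DMSO. Each of the 5 was called in 1 of the 4 fits without 1 library, so single members are less firm than the median. For all 5 it was the fit without the second estradiol library, where the first stands alone.

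The median of the ribosomal protein genes depended on 1 library. Of 75 tested cytosolic ribosomal protein genes none was called, although all 75 changes were negative, with a median of -0.37. Without the first estradiol library the median was -0.05, and without the second it was -0.70. The 66 oxidative phosphorylation genes behaved alike, with no calls and a median of -0.33, or -0.06 without the first estradiol library.

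**Figure D3:**
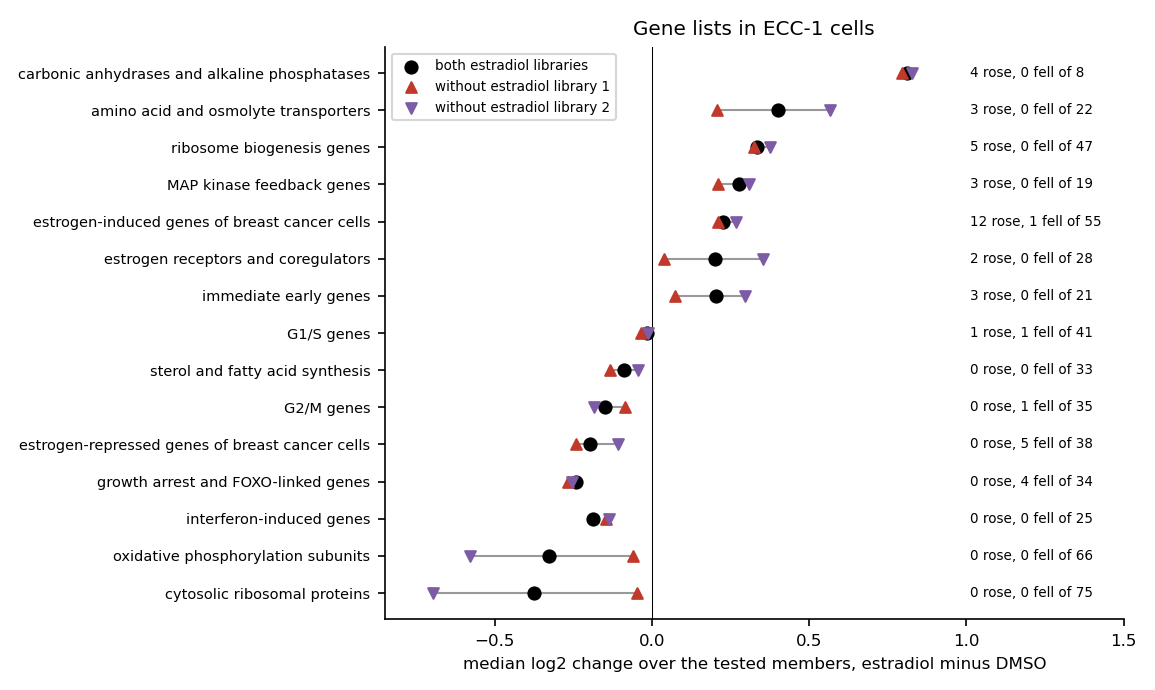
Median log2 change with estradiol (x axis) over the tested members of 15 gene lists in ECC-1 cells, with both estradiol libraries (black circles), without estradiol library 1 (red triangles) and without estradiol library 2 (purple triangles); the counts of members that rose and fell are at the right. The ribosome biogenesis median stays between 0.32 and 0.38, whereas that of cytosolic ribosomal proteins lies between -0.70 and -0.05.

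In TGF-beta and BMP signalling, THBS1, VASN and SKIL rose among 28 tested genes, and in WNT signalling the receptor FZD5 rose among 26. Of all tested genes 1.42% rose. The median of the TGF-beta and BMP list was 0.09, or -0.03 without the first estradiol library. Without the first estradiol library VASN, SKIL and FZD5 were no longer called, with limma adjusted p of 0.178, 0.184 and 0.178, and the median of the WNT list was 0.08 in place of 0.24. In the insulin-like growth factor system the binding protein gene IGFBP4 rose, with 1.11 and 1.20 scaled RPKM with estradiol and 0.462 and 0.497 with DMSO. IGFBP3, far more abundant, fell to 431 and 371, against 544 and 714 with DMSO. IGFBP4 was called in 2 and IGFBP3 in 1 of the 4 fits without 1 library. Among 20 heat shock genes the co-chaperone BAG3 rose, with 48.1 and 34.5 with estradiol and 18.5 and 21.2 with DMSO.

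No member was called among 25 interferon-induced genes (median -0.19), 22 unfolded protein response genes (median -0.07), 26 aminoacyl-tRNA synthetase and amino acid stress genes (median 0.04), 30 glycolysis and hypoxia genes (median 0.00) or 8 aryl hydrocarbon receptor targets (median 0.06).

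The largest falls include a pair of close copies. TRIM43B and TRIM43, near-identical genes known from the early embryo, had 0.941 and 1.33 and 0.956 and 1.32 scaled RPKM with estradiol, against 4.27 and 2.36 and 4.19 and 2.40 with DMSO, and are not separate measurements. TMEM139 fell to 9.18 and 10.8, against 22.0 and 21.5 with DMSO, a log2 change of -1.09 (SE 0.13, adjusted p = 0.000153). It had the lowest adjusted p of all falls. APOBEC3B, a cytidine deaminase acting on DNA, fell to 3.42 and 3.24, against 6.17 and 6.82 with DMSO. ZBED2, a zinc finger transcription factor, fell to 6.98 and 7.71, against 13.6 and 15.2 with DMSO. For these 3 genes the groups were well apart and each was called in all 4 fits without 1 library.

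Among the other large falls, PRODH, the first enzyme of proline breakdown, had 2.19 and 1.67 with estradiol and 4.35 and 3.84 with DMSO. FGFR2, a fibroblast growth factor receptor, had 8.02 and 6.26 with estradiol and 13.8 and 12.3 with DMSO. PLK2, a polo-like kinase, was the most abundant of the 20, with 91.7 and 97.1 with estradiol and 169 and 170 with DMSO. PRODH and FGFR2 were called in 3 and PLK2 in 1 of the 4 fits without 1 library. PRR15L, SCEL, DBP, CALY, C9orf70 and CASQ1 are also among the 20, with log2 changes of -1.15 to -0.80.

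Some genes had almost no reads with DMSO and a measurable level with estradiol. MSMB, which encodes a secreted protein of mucosal glands, was at 0 in both DMSO libraries, where 3 reads would give 0.288 and 0.201 scaled RPKM, and had 0.662 and 1.02 with estradiol. NPPC, encoding C-type natriuretic peptide, had 0.711 and 1.11 with estradiol and 0.124 and 0.0862 with DMSO, under the level of 3 reads. SECTM1 and the small nucleolar RNA SNORA4 were also under that level in both DMSO libraries, but were called in 1 and 2 of the 4 fits without 1 library. MSMB and NPPC were called in all 4. SNORA4 lies within EIF4A2, whose reads it may share.

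Positions add to this picture. Of the tested genes, 13716 matched the RefSeq annotation by accession, symbol or synonym. Ordered along the chromosomes, 62 of 258 called genes had a called gene as an immediate tested neighbour, 24.0%, against 3.69% of all ordered genes. These made 34 pairs, of which 30 moved in the same direction. Of the 30, 25 do not overlap. Some are close copies, as with ALPP and ALPPL2, KRT6B and KRT6C, or TRIM43 and TRIM43B.

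Other neighbours are unrelated in sequence, and those given next were picked after their values were seen. RASGRP1, an activator of RAS, lies beside THBS1 and had 2.16 and 1.73 scaled RPKM with estradiol and 0.579 and 0.546 with DMSO. CARD10, a scaffold of NF-kappa-B signalling, lies beside MFNG and had 12.7 and 10.9 with estradiol and 3.60 and 4.10 with DMSO. FUT3, a fucosyltransferase, lies beside NRTN and had 3.76 and 3.19 with estradiol and 1.33 and 1.37 with DMSO. In each of these pairs both genes were called in all 4 fits without 1 library. HES2, ESPN and TNFRSF25 form a run of 3 neighbours that rose by 2.41, 1.84 and 1.43 on the log2 scale, of which ESPN and TNFRSF25 overlap.

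Overlap and sequence copies limit other single genes. The libraries were not strand-specific, so overlapping genes such as KCNJ5 and its antisense transcript C11orf45, which rose by 1.74 and 0.81, cannot be told apart. Of matched called genes, 16.2% overlapped another tested gene, against 22.0% of matched tested genes. ESPN, an actin-bundling protein, had 107 and 88.7 with estradiol and 26.7 and 26.8 with DMSO, and its pseudogene ESPNP rose by a similar 1.96. TIAF1 overlaps MYO18A, and the 2 symbols rose by 1.62 and 1.23. The RNA surveillance kinase gene SMG1 and its copies LOC641298, LOC100271836 and LOC595101 rose by 0.80, 1.12, 1.13 and 1.03, and share reads in ways the files do not show.

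Estradiol and genistein in ECC-1 could be compared directly, at 10 nM and 100 nM. Limma called 0 of 13827 genes (0%) different between them, with 387 at an unadjusted p under 0.05, and 2 genes when no filter on low values was applied. The genes below were chosen on the same estradiol libraries that enter the difference. For the 25 largest rises the difference on the log2 scale, estradiol minus genistein, ran from -0.14 to 0.57, with a median of 0.19. The 95% interval held 0 for 21 of the 25. Its bounds lay 0.26 to 0.72 from the estimate, so differences within those bounds were not resolved.

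By gene, DHRS3 had 17.5 and 29.5 scaled RPKM with estradiol, 17.2 and 25.97 with genistein and 8.28 and 11.7 with BPA, above 0.750 and 1.42 with DMSO. TGFA had 134 and 147 with estradiol, 129 and 127 with genistein and 104 and 89.2 with BPA, above 35.1 and 34.4 with DMSO. THBS1 showed the largest estradiol excess of the 25, with 118 and 67.6 with estradiol against 59.3 and 60.9 with genistein, a difference of 0.57 with a 95% interval from 0.02 to 1.12. For THBS1 the second estradiol library stood close to the genistein libraries. NRTN lay the other way, at 30.9 and 37.3 with estradiol and 41.4 and 34.02 with genistein, where the libraries overlap. The 20 largest falls had estradiol minus genistein differences of -0.83 to 0.08, with a median of -0.23. Of these 20 differences 19 were negative, and the 95% interval held 0 for 12.

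Against BPA at 100 nM, estradiol differed in 21 genes (0.152%), 19 higher and 2 lower with estradiol. All 21 were also called against DMSO, a comparison that uses the same 2 estradiol libraries. PIM1 had 9.09 and 8.12 scaled RPKM with estradiol, 2.94 and 2.66 with BPA and 1.99 and 2.00 with DMSO. The estradiol minus BPA difference was 1.46 (adjusted p = 0.00052). MMP17 had 12.6 and 10.9 with estradiol against 4.14 and 3.61 with BPA, and G0S2 had 19.4 and 23.4 against 6.57 and 5.55. OLFML3, a secreted olfactomedin-like protein, had 3.95 and 4.63 against 1.96 and 1.44. The 2 genes lower with estradiol were TRIM43 and the small nucleolar RNA SNORA25, the second of which was at 0 in both estradiol libraries. SNORA25 had 1.06 and 0.49 with DMSO, and at 134 bases few reads stand behind such values. It overlaps TAF1D, whose reads it may share, and its fall against DMSO was called in 2 of the 4 fits without 1 library.

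All 25 of the largest rises were higher with estradiol than with BPA, by 0.29 to 1.74 on the log2 scale, and 14 of these differences were called. The 25 were chosen on the same estradiol libraries, so the shared direction is in part built in. DEPDC6 was nearest, with 20.2 and 20.8 with estradiol and 17.6 and 15.8 with BPA. The BPA count depends on single libraries. It was 2 without the first estradiol library and 950 without the second, and 1 without the second BPA library.

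**Figure D4:**
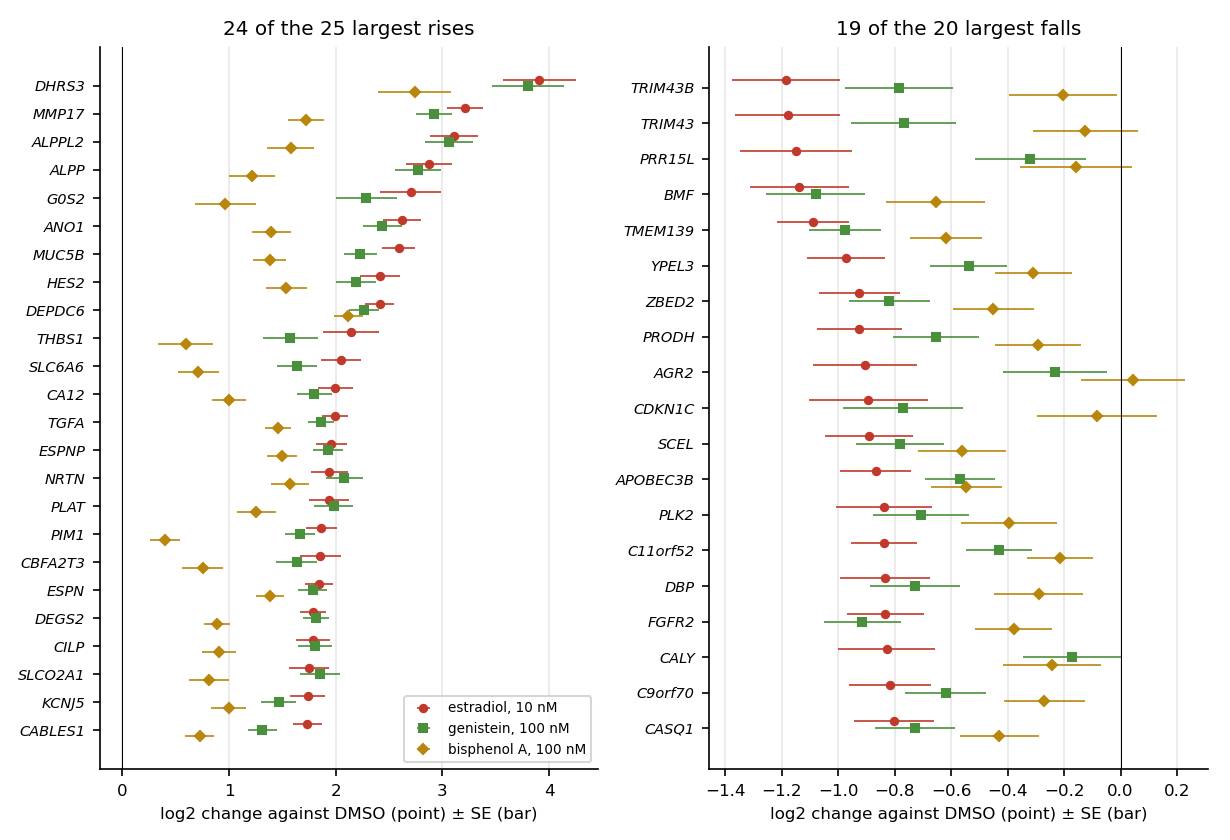
Log2 change against DMSO (x axis, point, with its SE as a bar) for 24 of the 25 genes that rose most and 19 of the 20 that fell most with estradiol in ECC-1 cells, for 10 nM estradiol (red), 100 nM genistein (green) and 100 nM BPA (gold). The 3 contrasts share the same 2 DMSO libraries, so agreement among them is in part built in; DEPDC6 has changes of 2.41, 2.26 and 2.12, and PIM1 has 1.86, 1.67 and 0.40.

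In T-47D cells, with control libraries of their own, estradiol changed 445 genes (3.22%), of which 291 rose (2.1%) and 154 fell (1.11%). Of the 262 genes changed in ECC-1, 33 were also changed in T-47D, 12.6% of the ECC-1 genes and 7.42% of the T-47D genes. Of the 33, 30 moved in the same direction, 27 up and 3 down. THBS1, CA12, CISH, RASGRP1 and PGR are among those that rose in both.

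CISH rose by 1.40 in ECC-1 cells and by 1.29 in T-47D cells, a difference of 0.11 with a 95% interval from -0.47 to 0.69. PGR had log2 changes of 1.16 in ECC-1 cells and 1.09 in T-47D cells, but its ECC-1 value is shrunk by the added 0.5: the means were 0.774 with estradiol and 0.0710 with DMSO in ECC-1, and 137.8 with estradiol and 63.4 with DMSO in T-47D. The 3 genes that fell in both were the adaptor BLNK, IGFBP3 and the receptor gene GPR110, with -0.53 and -0.50 for BLNK. In ECC-1, BLNK and IGFBP3 were called in 1 and GPR110 in 3 of the 4 fits without 1 library. IL4R, ROBO2 and VASN rose in ECC-1 cells but fell in T-47D cells. In ECC-1, IL4R was called in all 4 fits without 1 library, but ROBO2 and VASN in only 1. The T-47D falls of ROBO2 and VASN were near the threshold (limma adjusted p = 0.043 and 0.046). ROBO2 was also low in ECC-1, with 0.519 and 0.576 scaled RPKM with estradiol and 0.0754 and 0.168 with DMSO. For IL4R, the interleukin 4 receptor, the log2 changes were 1.03 in ECC-1 cells and -0.61 in T-47D cells.

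The difference between the lines was itself tested, as an interaction. It was called for 239 genes (1.73%), 116 with a higher and 123 with a lower change in ECC-1. The T-47D estradiol libraries also differed from each other, with an SD of 0.411, and without the second of them 2214 genes were called. The 262 ECC-1 genes supplied 92 of the 239, and the same ECC-1 libraries enter both tests. Of the 196 rises, 74 had a higher and 2, MYC and GREB1, a lower change in ECC-1 than in T-47D. Of the 66 falls, 16 had a lower change in ECC-1.

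DHRS3 had 3.40 and 4.39 scaled RPKM in T-47D cells with estradiol and 5.72 and 4.62 with DMSO, so its change differed between the lines by 4.28 (SE 0.48, adjusted p = 0.000212). T-47D had 9.65 and 6.75 for MMP17 with estradiol and 7.40 and 7.39 with DMSO, a gene well above detection that overlapped between groups there. ALPP, MUC5B, CILP and G0S2 were under 0.3 in all 4 of those T-47D libraries. Of the 25 largest rises in ECC-1, 23 had an interaction called, all but THBS1 and CA12. Among the 20 largest falls it was 9.

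**Figure D5:**
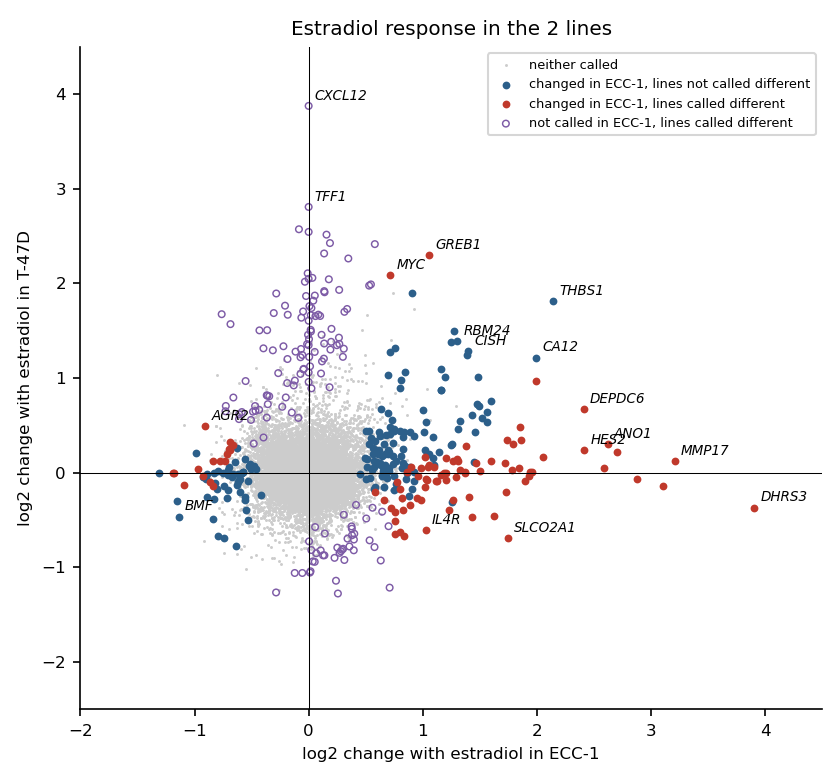
Log2 change with estradiol in ECC-1 cells (x axis) against that in T-47D cells (y axis) for 13827 genes. Red points changed in ECC-1 with the lines called different, blue points changed in ECC-1 without that call, and open purple points were not called in ECC-1 but differ between the lines; DHRS3 lies at 3.91 and -0.37, THBS1 at 2.14 and 1.81, and CXCL12 at 0.00 and 3.88.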

How the data were processed

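Polyadenylated RNA of 16 samples was sequenced after tagging by a transposase, which loses the strand, per the labels. The authors deposited 1 table of RPKM values per library, for 32062 RefSeq transcripts. Bowtie and hg19 are named as aligner and build in the submitters' processing notes. The counting step and the treatment of reads matching several places are not given in the sources used here. Read counts were not used here. The steps between low values, of which 61.9 to 64.2% lay within 0.1 read of a whole number (20% by chance), gave depths of 17.32 to 29.42 M reads (M, 1000000).

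For the 5983 symbols with several transcripts the one with the highest mean was used. Libraries were scaled to the geometric mean of all libraries by their median ratio over 7547 genes (factors 0.938 to 1.054). The 13827 genes that reached 1 RPKM in 2 or more libraries were tested on log2(scaled RPKM + 0.5) with 1 limma 3.58.1 fit of 8 groups over the 16 libraries (R 4.3.3, mean-variance trend, 8 residual degrees of freedom), tested on simulated data. P-values were adjusted by Benjamini-Hochberg over all genes, with a threshold of 0.05. Medians of 44 gene lists carry no test.

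The genes named are the 25 largest rises and 20 largest falls with a mean of at least 1 and groups that do not overlap, up to 6 called members of each list, a panel of 10 estrogen-related genes, the 10 largest differences in each direction of the other contrasts, and called genes under 3 reads in both DMSO libraries. Genes outside this rule were picked after their values were seen. The comparison and the lists were chosen with earlier results of these data known. Of the tested genes, 13716 matched the RefSeq annotation on GRCh38.p14, which gave names and neighbours. Single genes that the rule names but the text leaves out are not reported here. Replicate numbers were not taken to pair the libraries, which the labels do not settle. Alternatives covered scaling, pseudocount, filter, transcript choice, samples fitted, weights, a replicate block, trend and left-out libraries.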

Additional observations from a re-analysis of the deposited data

Results flagged for a closer look

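The change with estradiol differed between ECC-1 and T-47D by the interaction term of the limma fit for 239 genes at an adjusted p under 0.05. The values that follow are the log2 change in ECC-1 minus that in T-47D. They were positive, with a rise in ECC-1, for DHRS3 (4.28), ALPPL2 (3.25), MMP17 (3.09), ALPP (2.94), MUC5B (2.54), G0S2 (2.49), SLCO2A1 (2.44), ANO1 (2.33), HES2 (2.17), TIAF1 (2.08), PLAT (1.98), ESPNP (1.95), CABLES1 (1.94), NRTN (1.94), SLC6A6 (1.89), ESPN (1.79), CILP (1.76), DEPDC6 (1.74), PIM1 (1.52), DEGS2 (1.48), KCNJ5 (1.39), CBFA2T3 (1.38) and TGFA (1.03).

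They were negative, with a fall in ECC-1, for AGR2 (-1.40), TRIM43B (-1.19), TRIM43 (-1.18), YPEL3 (-1.02), TMEM139 (-0.96), DBP (-0.95), ZBED2 (-0.89), APOBEC3B (-0.77) and C11orf52 (-0.69). TRIM43 and TRIM43B were at 0 in the T-47D estradiol and DMSO libraries.

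The most negative values belonged to genes that rose in T-47D and were not called in ECC-1. These were CXCL12 (-3.88), TFF1 (-2.81), SUSD3 (-2.66), OLFM1 (-2.55), TNNI2 (-2.44), NKAIN1 (-2.36), AGR3 (-2.26), KCNK5 (-2.24), KRT13 (-2.18) and FGD3 (-2.18). CXCL12, TFF1 and OLFM1 were listed at 0 in all 4 ECC-1 libraries of the comparison.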

How the results depend on the processing

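Counts of calls depended on single libraries. Leaving out 1 library at a time gave 110 to 2162 genes changed by estradiol in ECC-1 (93 to 1118 rises, 17 to 1044 falls), 1 to 950 genes against BPA and 112 to 2214 interaction genes. The highest counts came without the second estradiol library of ECC-1 (2162, 1118, 1044, 950) and of T-47D (2214), where the lone library is assumed to vary like the other groups. Other settings gave these counts, in the order changed, rose and fell: 138, 105 and 33 with a filter at a mean RPKM of 5, 143, 121 and 22 with the ECC-1 libraries only, 123, 108 and 15 with array weights, and 657, 432 and 225 with length and GC trends removed, a setting chosen after seeing the data. Genes against BPA numbered 12, 1, 2 and 42 under those settings, 32 without the trend and, added later, 12 without both first estradiol libraries. Interaction genes numbered 113, 60 and 391 with the mean filter, array weights and trend removal. Against genistein, 2 genes were called with no filter on low values. With the replicate block, 280 genes changed (204 rose, 76 fell; 236 of the 262 among them) and 43 differed from BPA. With the estradiol numbers crossed, also added later, 241 changed. The deviations of same-numbered libraries correlated at -0.19 for estradiol with DMSO, at up to 0.301 (estradiol with genistein) among ECC-1 groups and at -0.224 to 0.408 among T-47D groups, so the numbers were not taken to pair the libraries. Of 88 named calls, 85 kept their call with trends removed and 50 without the first estradiol library. No named call changed direction. The cause of these differences was not tested. Depth limits genes under about 1 RPKM, where few reads stand behind a value.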
